A study of Xenopus laevis with 8 samples.

Results

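Genes of the tubulins, of the kinesin and cytoplasmic dynein motors and of the factors that bind them were examined in *Xenopus laevis* animal caps. They were taken by name from the array annotation: tubulins and their complexes and folding cofactors, numbered kinesins, dynein and dynactin subunits, stathmins, TACC proteins, and the microtubule-associated proteins MAP1, MAP2, MAP4, MAP7, tau and the end-binding family. This gave 83 probe sets of 15491 tested, for 70 gene symbols or 56 genes when the homoeologs .L and .S of this allotetraploid frog are joined. A further 2 probe sets, of *stmn2* and of *dynll1*, carry the symbols of both homoeologs and were left out. The current assembly lists 163 protein-coding symbols that match the same names, so the array reads fewer than that. Of the 83 probe sets 64 were above background on all 8 arrays and 6 on none, and no filter was applied. The caps are pooled explants of blastula ectoderm cultured to the equivalent of stage 15. Control caps came from embryos that received RNA for a fluorescent protein, named GFP in the labels and YFP in the methods. By the methods, EFTF caps received that RNA together with RNA for the eye field transcription factors *pax6*, *tbx3*, *rax*, *nr2e1*, *six3* and *six6* and for *otx2*. Each group has 4 arrays. The sources used here do not give the strain of the frogs. The methods describe triplicates, each from its own day and female, while each group here has 4 arrays, so arrays of a group may share a day and a female. Nothing says which do, so the 4 arrays may not be 4 separate replicates, nor the 4 numbers 4 separate pairs, and the p-values measure only the spread between these arrays. GFP replicate 1 has a title that says GFP and a source label that says EFTF, and a member whose call changed without a replicate 1 array is given with and without it. Over all probe sets EFTF replicate 1 correlated more with GFP replicate 1 (0.983) than with EFTF replicates 2, 3 and 4 (0.976, 0.962 and 0.943). GFP replicate 1 correlated at 0.961 to 0.977 with the other GFP arrays and at 0.915 to 0.958 with EFTF replicates 2 to 4. Which of its labels is right was not tested.

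Microtubules are hollow polymers of alpha and beta tubulin, seeded at the centrosome by gamma-tubulin. Most kinesins walk toward their plus ends and cytoplasmic dynein, with dynactin, toward their minus ends. In ectoderm of this age they build the spindles of dividing cells. Later they build the axonemes of the multiciliated cells that sweep mucus over the larval skin, and the processes of neurons. Different tubulin isotypes and motors serve these structures, which is why mitotic, ciliary and neural members were taken apart. An animal cap holds several cell types, and in such bulk RNA fewer cells of a type and less RNA per cell cannot be told apart.

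No member passed the unpaired test, in which EFTF and GFP arrays were compared with limma at an adjusted p of 0.05 over all probe sets. That test called 1.42% of all probe sets, 0.762% higher and 0.658% lower, so 0 of 83 is near that share and says little. The equal-variance test called 0 members and only 2 of all 15491 probe sets, so its 0 says little about the members. At an unadjusted p below 0.05 there were 30 of 83 members (17 higher, 13 lower), or 36.1% against 17.3% of all probe sets. The arrays were taken to pair by replicate number. Each EFTF array deviated from its group mean in the same sense as the GFP array of the same number (correlations across probe sets of 0.217 to 0.639). Pair 3 was not singled out by this, as GFP replicate 3 correlated more with EFTF replicate 2 (0.281) than with EFTF replicate 3 (0.217). With the replicate number as a block, which compares arrays within pairs, 17 of the 83 members passed (20.5%, against 10.2% of all probe sets). Of these 9 were higher (10.8%, against 4.91%) and 8 lower (9.64%, against 5.25%). The higher ones were 7 probe sets of the mitotic kinesins *kif2c.S*, *kif4a.S*, *kif11.L*, *kif11.S*, *kif22.S* and *kif23.S*, and 1 each of *tacc3.S* and *tuba1c.S*. The lower ones were *tubb4b.L*, *tubb4b.S*, *kif2a.S* and 5 probe sets of dynein light chains. The groups did not overlap in 13 members (5 higher, 8 lower), or 15.7% against 10.2% of all probe sets (5.42% higher, 4.75% lower). Members were more often above background on all 8 arrays (64 of 83) than all probe sets were (10353 of 15491). The shares over all probe sets were not adjusted for this.

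The blocked counts turned on single pairs. With both replicate 1 arrays left out the blocked fit called 14 members higher and 11 lower, and 908 and 921 of all 15491 probe sets. With the pair of replicate 2, 3 or 4 left out it called none, and then 0, 42 and 0 probe sets over the whole array. Without EFTF replicate 1 the unpaired fit called 6 members higher and 8 lower, and 406 and 296 probe sets over the whole array. Without GFP replicate 1 it called only *tubd1.L* among the members, and 68 probe sets higher and 53 lower over the whole array. Leaving out any other single array gave 0 member calls in the unpaired fit. The conflicting labels are those of GFP replicate 1, so a pass without EFTF replicate 1 shows dependence on 1 array and is no added support. Below, an adjusted p is from the unpaired fit and a blocked adjusted p from the fit with the replicate number, and both come from limma. Levels are log2 RMA intensities and differences are EFTF minus GFP on that scale. Because levels of different probe sets depend on their probes, they are compared only between arrays.

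**Figure D1:**
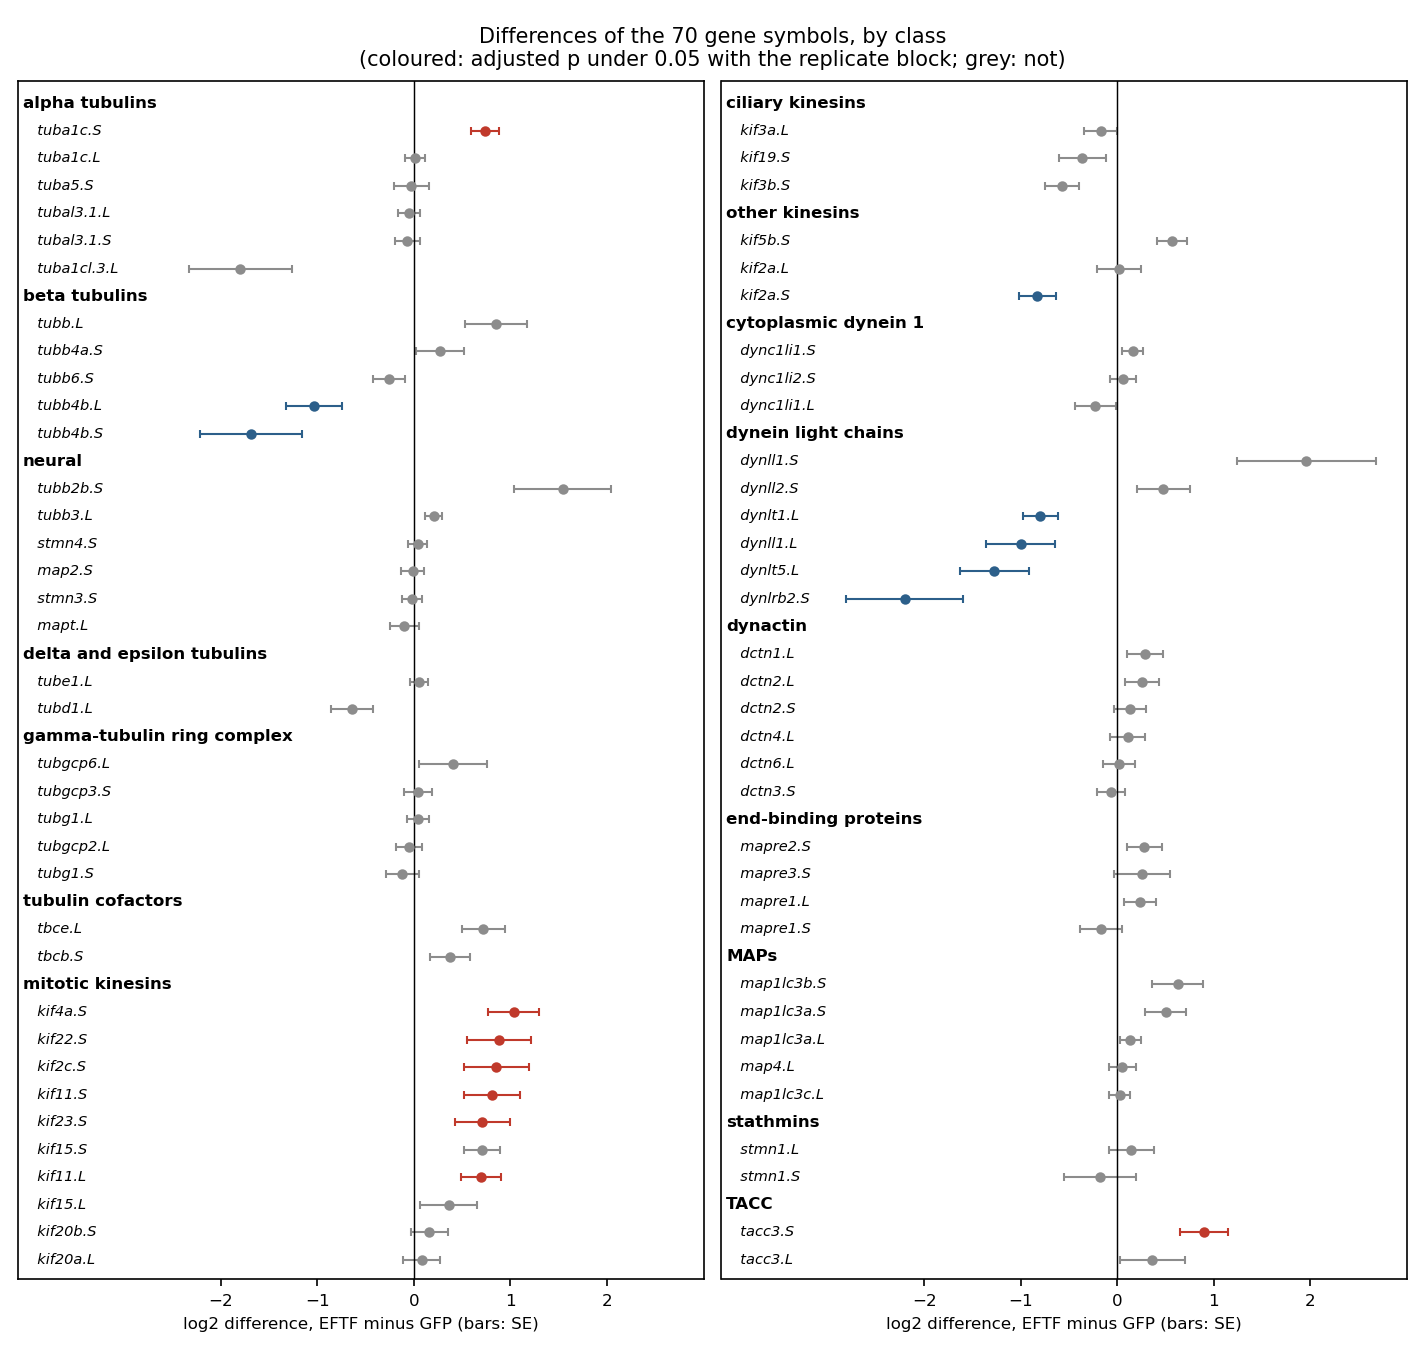
Log2 differences, EFTF minus GFP, of the 70 gene symbols by class (brightest probe set of each, bars show the SE of the unpaired fit, n = 4 arrays a group). Coloured points passed an adjusted p of 0.05 with the replicate block, red for higher and blue for lower, and grey points did not. The mitotic kinesins all lie right of 0, while *dynlrb2.S*, *tuba1cl.3.L* and *tubb4b.S* lie farthest left.

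Among the alpha tubulins, *tuba1cl.3.L* had the lowest reading relative to control caps. Its brightest probe set read 10.60, 9.90, 8.55 and 7.94 on EFTF arrays 1 to 4 and 11.06, 11.03, 11.27 and 10.82 on GFP arrays 1 to 4. Every EFTF array lay below every GFP array, by little in replicate 1 and by most in replicates 3 and 4. The difference was -1.80 ± 0.53 (SE, limma adjusted p = 0.134, blocked adjusted p = 0.0564), a level 3.47-fold lower that did not pass. Its other probe sets differed by -1.64 ± 0.47 and -1.93 ± 0.63, with groups apart in both. Without EFTF replicate 1 the brightest differed by -2.25 with adjusted p = 0.0352, and without the replicate 1 pair in the blocked fit by -2.24 (blocked adjusted p = 0.0309). The other probe sets passed in both of these fits as well. *tuba1c.S* lay the other way. It read 9.96, 9.80, 10.23 and 10.27 on EFTF arrays 1 to 4 and 9.43, 9.12, 9.25 and 9.51 on GFP arrays 1 to 4, again with no overlap, and its difference of 0.74 ± 0.15 (SE, limma adjusted p = 0.0529, blocked adjusted p = 0.0265) passed with the block. With quantile normalization it differed by 0.85 with adjusted p = 0.0379, and without EFTF replicate 1 by 0.77 (adjusted p = 0.0458). Its other probe sets differed by 0.76 ± 0.34 and 0.74 ± 0.24, higher in all 4 pairs and not past the threshold in either fit on all arrays. The latter passed without EFTF replicate 1, at 0.96 (adjusted p = 0.0329). It also passed with the block without the replicate 1 pair, at 0.92 (blocked adjusted p = 0.0444). *tuba5.S*, read by 3 bright probe sets, differed by -0.019 to -0.085 (adjusted p from 0.851 to 0.972). *tuba1c.L* and the *tubal3.1* pair were at or near background, which the highest of 17 control probe sets that match no frog transcript set at 2.90 to 3.18. Alpha tubulins are close paralogs, and 6 member probe sets (5 of alpha tubulins, with the brightest of *tuba1cl.3.L*, and 1 of *kif2c.S*) are of the kind that the array design marks as able to cross-hybridise. The probe set of *tbcb.S* carries the mark for probes shared between transcripts. The *tuba1cl.3.L* probe set without that mark gave the larger difference of -1.93 ± 0.63.

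Of the beta tubulins both *tubb4b* homoeologs were lower with the block. In mammals TUBB4B is a main beta tubulin of ciliary axonemes. *tubb4b.L* read 10.27, 9.64, 9.23 and 8.89 on EFTF arrays 1 to 4 and 10.81, 10.60, 10.62 and 10.13 on GFP arrays 1 to 4, a difference of -1.03 ± 0.29 (SE, limma adjusted p = 0.123, blocked adjusted p = 0.027). Only EFTF replicate 1 reached into the GFP range, above GFP replicate 4. *tubb4b.S* read 8.69, 7.90, 6.83 and 6.20 on EFTF arrays 1 to 4 and 9.53, 9.34, 9.16 and 8.33 on GFP arrays 1 to 4. It was lower in all 4 pairs and 3.22-fold lower on average, a difference of -1.69 ± 0.53 (SE, limma adjusted p = 0.151, blocked adjusted p = 0.0267). The groups overlapped only between EFTF replicate 1 and GFP replicate 4. Without EFTF replicate 1 both passed unpaired, *tubb4b.L* at -1.29 (adjusted p = 0.0297) and *tubb4b.S* at -2.11 (adjusted p = 0.045). Without GFP replicate 1 neither did (limma adjusted p = 0.23 for *tubb4b.L* and adjusted p = 0.275 for *tubb4b.S*). The other beta tubulins did not pass in either fit. *tubb.L* differed by 0.85 ± 0.32 (adjusted p = 0.218, blocked adjusted p = 0.0922) and was higher in all 4 pairs, and *tubb4a.S* differed by 0.27 ± 0.24 (adjusted p = 0.666, blocked adjusted p = 0.371). *tubb6.S* differed by -0.26 ± 0.16 (adjusted p = 0.5, blocked adjusted p = 0.229). Beta tubulins are near-identical over most of their length, and signal of one paralog on the probes of another cannot be recognised from these values.

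**Figure D2:**
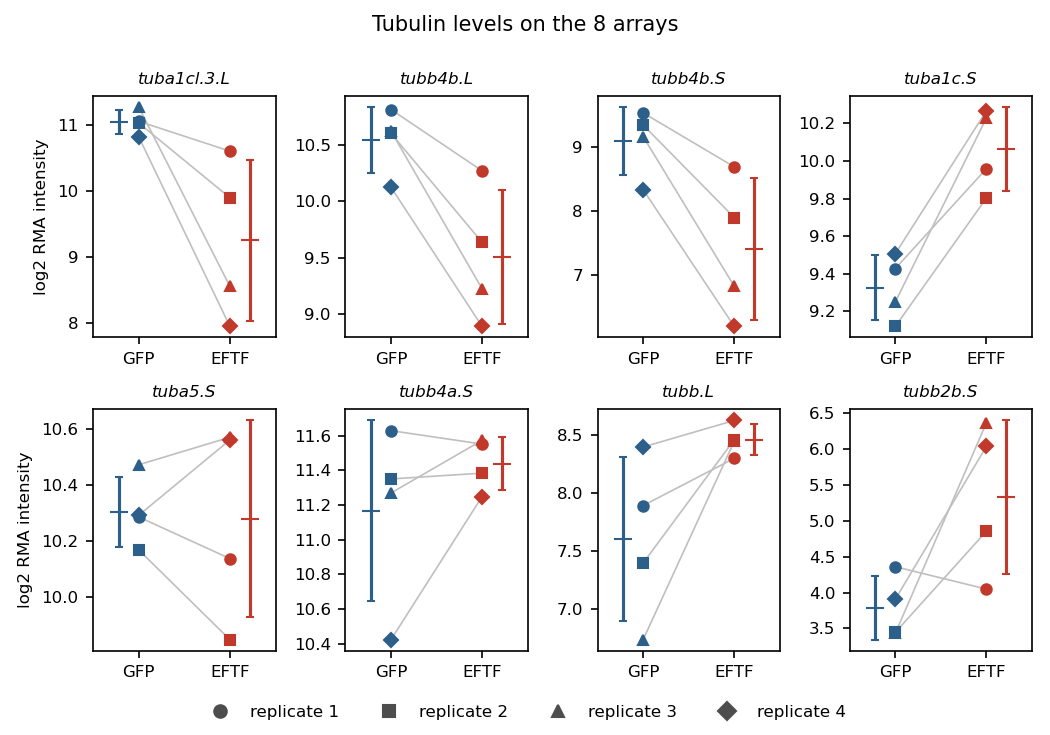
Levels of 8 tubulin genes (log2 RMA intensity, brightest probe set) on the 4 GFP and 4 EFTF arrays, with grey lines joining arrays of the same replicate number and bars showing the mean ± SD of each group. *tuba1cl.3.L* and both *tubb4b* homoeologs run down in every pair, *tuba1c.S* and *tubb.L* run up, and *tubb2b.S* runs up in 3 of 4 pairs.

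The analysed tubulins and regulators typical of neurons read close to background, except for *tubb2b*, the N-tubulin used in *Xenopus* as a marker of the first neurons. *tubb2b.S* read 4.05, 4.86, 6.37 and 6.04 on EFTF arrays 1 to 4 and 4.36, 3.44, 3.43 and 3.91 on GFP arrays 1 to 4. EFTF replicates 3 and 4 lay highest, and EFTF replicate 1 lay below GFP replicate 1. Its difference was 1.54 ± 0.50 (SE, limma adjusted p = 0.164, blocked adjusted p = 0.11), 2.91-fold on average and not past the threshold. Without EFTF replicate 1 it was 1.97 with adjusted p = 0.0405, and in the blocked fit without the replicate 1 pair 2.16 with blocked adjusted p = 0.0238. *tubb3.L*, which encodes the neuronal class III beta tubulin, read 3.00, 3.101, 3.03 and 2.99 on EFTF arrays 1 to 4 and 2.91, 2.84, 2.73 and 2.83 on GFP arrays 1 to 4. These groups did not overlap, but 0 GFP arrays and 3 EFTF arrays were above background (adjusted p = 0.293, blocked adjusted p = 0.23). The neuronal stathmin genes *stmn3.S* and *stmn4.S*, *map2.S* of dendrites and the tau gene *mapt.L* of axons differed by -0.099 to 0.041 (adjusted p from 0.827 to 0.977). *stmn3.S* was above background on no array and *map2.S* on 1. The probe set of the neural stathmin gene *stmn2*, which carries the symbols of both homoeologs, was left out. The median over the 6 neural members was 0.014, against 0.028 over the brightest probe sets of all 7531 symbols.

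Markers of neural cells are given beside these values. Of 10 symbols on a list of neural progenitor markers 8 passed the unpaired test as higher, against 0.762% of all probe sets. The summed linear intensity of the 10 was 3823 to 6758 on EFTF and 491 to 1320 on GFP arrays (*nes.S* was above background on no array). EFTF replicate 1 had the lowest sum of its group and GFP replicate 1 the highest of its own. On the list of early neuron markers 0 of 10 symbols passed in either fit. Of all probe sets 1.42% passed the unpaired test and 10.2% the block, so 0 of 10 says little. Only 5 of the 10 were above background on all 8 arrays, and *neurog2.L* was on none. The median of the 10 was 0.038, with sums of 97.0 to 113 on EFTF and 97.0 to 107 on GFP arrays. The part of either cell type in the *tubb2b.S* reading was not tested.

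Mitotic kinesins were the members with the most calls as higher. All 10 symbols and all 12 probe sets had a higher mean in EFTF caps, where 4122 of all 7531 symbols did. Of the 10 symbols 6 passed with the block, against 4.91% of all probe sets, and 0 in the unpaired test. In all 4 pairs 7 were higher, where 19% of all probe sets were. The median difference was 0.70, against 0.028 over all symbols. *kif4a.S*, a chromokinesin that binds chromosome arms, had the largest difference. It read 5.33, 6.02, 6.04 and 6.66 on EFTF arrays 1 to 4 and 4.74, 5.12, 4.84 and 5.20 on GFP arrays 1 to 4. Every EFTF array lay above every GFP array, and the difference was 1.03 ± 0.26 (SE, limma adjusted p = 0.0918, blocked adjusted p = 0.0272), or 2.05-fold. Without EFTF replicate 1 it passed unpaired, at 1.26 (adjusted p = 0.023).

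Kinesins of the spindle followed. *kif11.S*, the bipolar motor Eg5 that pushes spindle poles apart, read 5.59, 6.17, 6.39 and 6.85 on EFTF arrays 1 to 4 and 4.91, 5.50, 5.48 and 5.89 on GFP arrays 1 to 4. Within pairs it was higher by 0.67 to 0.96, and the group ranges overlapped, with EFTF replicate 1 below GFP replicate 4. Its difference was 0.81 ± 0.29 (SE, limma adjusted p = 0.205, blocked adjusted p = 0.023), and that of *kif11.L* was 0.69 ± 0.21 (SE, limma adjusted p = 0.135, blocked adjusted p = 0.0345). Without EFTF replicate 1 *kif11.L* passed unpaired, at 0.86 (adjusted p = 0.0397). *kif2c.S*, the centromeric depolymerase MCAK, read 7.48, 7.92, 8.08 and 8.65 on EFTF arrays 1 to 4 and 6.65, 7.09, 6.94 and 8.02 on GFP arrays 1 to 4. It too was higher in all 4 pairs, by 0.63 to 1.13, with GFP replicate 4 above the lower EFTF arrays (0.85 ± 0.34, adjusted p = 0.244, blocked adjusted p = 0.0257). Of its other 2 probe sets 1 passed with the block (blocked adjusted p = 0.0422 and blocked adjusted p = 0.0932). The former no longer passed without the replicate 1 pair, at 0.73 (blocked adjusted p = 0.0823). *kif22.S*, the chromokinesin Kid that moves chromosome arms toward the spindle equator, read 6.74, 7.17, 7.74 and 8.04 on EFTF arrays 1 to 4 and 5.94, 6.57, 6.49 and 7.16 on GFP arrays 1 to 4. Pairs differed by 0.61 to 1.25, giving 0.88 ± 0.34 (SE, limma adjusted p = 0.225, blocked adjusted p = 0.0265). *kif15.S*, a plus-end motor that assists Eg5, read 8.21, 7.82, 8.66 and 8.58 on EFTF arrays 1 to 4 and 7.63, 7.69, 7.51 and 7.63 on GFP arrays 1 to 4. Its groups did not overlap, yet pair 2 differed by only 0.13, and it did not pass (0.70 ± 0.19, adjusted p = 0.104, blocked adjusted p = 0.0662). *kif15.L* differed by 0.36 ± 0.30 (adjusted p = 0.627, blocked adjusted p = 0.203).

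Of *kif23.S*, *kif20a.L* and *kif20b.S*, which are among the kinesins that act in cytokinesis, 1 passed with the block. *kif23.S*, the MKLP1 subunit of centralspindlin at the midzone, read 4.88, 4.95, 5.36 and 6.03 on EFTF arrays 1 to 4 and 4.33, 4.46, 4.48 and 5.13 on GFP arrays 1 to 4. It was higher in every pair, with GFP replicate 4 inside the EFTF range (0.71 ± 0.29, adjusted p = 0.252, blocked adjusted p = 0.0284). *kif20a.L*, the midzone motor MKLP2, read 9.31, 9.45, 9.61 and 10.20 on EFTF arrays 1 to 4 and 9.43, 9.52, 9.53 and 9.76 on GFP arrays 1 to 4. The groups overlapped throughout, replicates 1 and 2 were lower and replicates 3 and 4 higher in EFTF caps, and the difference was 0.08 ± 0.20 (SE, limma adjusted p = 0.899, blocked adjusted p = 0.754). *kif20b.S*, of the same kinesin family, differed by 0.16 ± 0.19 (adjusted p = 0.765, blocked adjusted p = 0.594). The sign of both was negative in 3 of the alternative fits each. Whether *kif20a.L* and *kif20b.S* differ from the other mitotic kinesins was not tested.

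**Figure D3:**
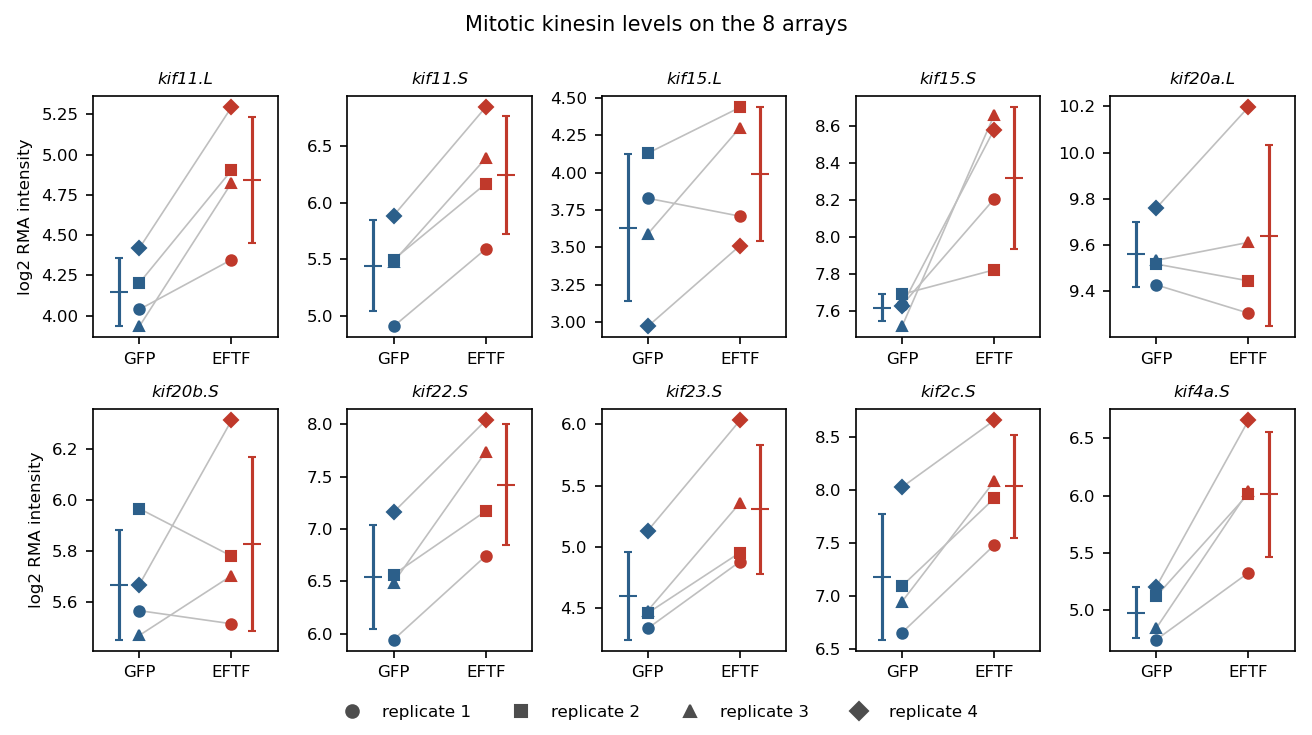
Levels of the 10 mitotic kinesin symbols (log2 RMA intensity, brightest probe set) on the 4 GFP and 4 EFTF arrays, with grey lines joining arrays of the same replicate number and bars showing the mean ± SD of each group. Lines run up in all 4 pairs for 7 symbols, and the group ranges overlap in all but *kif4a.S* and *kif15.S*, with replicate 4 arrays high in most panels.

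*tacc3.S*, a spindle factor known in *Xenopus* as maskin, had the lowest blocked p of the members. It read 6.57, 6.89, 7.24 and 7.50 on EFTF arrays 1 to 4 and 5.68, 6.09, 6.23 and 6.61 on GFP arrays 1 to 4. It was higher by 0.80 to 1.01 in the 4 pairs, a difference of 0.90 ± 0.25 (SE, limma adjusted p = 0.118, blocked adjusted p = 0.0182), while the group ranges overlapped between EFTF replicate 1 and GFP replicate 4. Its homoeolog *tacc3.L* differed by 0.36 ± 0.34 (adjusted p = 0.678, blocked adjusted p = 0.524). A list of genes of dividing cells (cyclins, *cdk1*, *plk1*, *pcna* and others) is given beside these motors. All 20 of its symbols were higher on average, 0 past the unpaired test and 5 with the block, with a median of 0.59. Of all 7531 symbols 4122 were higher on average, and 4.91% of all probe sets were higher with the block. Its summed linear intensity was 4384 to 8212 on EFTF and 3376 to 4351 on GFP arrays, highest in EFTF replicate 4 and lowest for the EFTF group in replicate 1. The part of dividing cells in the kinesin values was not tested.

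The kinesins of cilia were lower on average and dim. *kif3a* and *kif3b* encode the motor subunits of heterotrimeric kinesin-2, which carries cargo out along the axoneme, and *kif19* in mouse limits the length of cilia. *kif3b.S* read 3.18, 3.63, 3.33 and 3.27 on EFTF arrays 1 to 4 and 4.38, 3.88, 3.67 and 3.78 on GFP arrays 1 to 4. Every EFTF array lay below every GFP array, by most in replicate 1, and the difference of -0.58 ± 0.18 (SE, limma adjusted p = 0.144, blocked adjusted p = 0.095) did not pass. *kif3a.L* differed by -0.17 ± 0.17 (adjusted p = 0.692, blocked adjusted p = 0.4) and *kif19.S* by -0.36 ± 0.25 (adjusted p = 0.535, blocked adjusted p = 0.31), with overlapping groups. The median of the 3 was -0.36. All 3 were above background on all 8 arrays, but at levels of 2.97 to 4.59, where RMA pulls values together.

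Of the kinesins outside these classes, *kif2a.S* was lower with the block. KIF2A depolymerises microtubule ends at spindle poles and in growing neurites. *kif2a.S* read 10.12, 9.29, 9.29 and 9.40 on EFTF arrays 1 to 4 and 10.46, 10.34, 10.32 and 10.30 on GFP arrays 1 to 4. The GFP arrays lay within a narrow range, all above the EFTF arrays, and EFTF replicate 1 stood above the rest of its group. The difference was -0.83 ± 0.19 (SE, limma adjusted p = 0.0752, blocked adjusted p = 0.031), or 1.77-fold lower, and without EFTF replicate 1 it was -1.03 with adjusted p = 0.0056. Without both replicate 1 arrays it was -0.99 (adjusted p = 0.0201). *kif5b.S*, the heavy chain of conventional kinesin, read 4.33, 4.63, 4.91 and 4.44 on EFTF arrays 1 to 4 and 4.09, 3.75, 4.14 and 4.06 on GFP arrays 1 to 4. It was higher on all EFTF arrays, by 0.57 ± 0.16 (SE, limma adjusted p = 0.11, blocked adjusted p = 0.0584), short of the threshold. In the blocked fit without the replicate 1 pair it gave 0.68 with blocked adjusted p = 0.0498.

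Of the 6 dynein light chain symbols 4 were lower with the block, where 5.25% of all probe sets were. Among them was the member with the most negative difference. *dynlrb2.S*, a roadblock-type light chain that in mammals is abundant in ciliated cells, read 8.39, 8.02, 6.27 and 5.51 on EFTF arrays 1 to 4 and 9.30, 9.45, 9.44 and 8.80 on GFP arrays 1 to 4. All EFTF arrays lay below all GFP arrays, EFTF replicates 3 and 4 by far the most. The difference was -2.20 ± 0.61 (SE, limma adjusted p = 0.114, blocked adjusted p = 0.038), or 4.60-fold lower, and without EFTF replicate 1 it passed unpaired, at -2.65 (adjusted p = 0.043). *dynlt5.L*, a Tctex-type light chain, read 4.31, 4.51, 3.51 and 3.08 on EFTF arrays 1 to 4 and 4.89, 5.52, 5.51 and 4.56 on GFP arrays 1 to 4. It was lower in all 4 pairs, with differences of -0.59 to -2.01 (-1.27 ± 0.36, adjusted p = 0.122, blocked adjusted p = 0.0327). *dynlt1.L*, another Tctex-type chain, read 7.53, 7.55, 6.93 and 7.03 on EFTF arrays 1 to 4 and 8.12, 8.28, 7.97 and 7.86 on GFP arrays 1 to 4. Again no array of one group reached the other, with a difference of -0.80 ± 0.18 (SE, limma adjusted p = 0.0714, blocked adjusted p = 0.0262). Without EFTF replicate 1 it too passed unpaired, at -0.89 (adjusted p = 0.0454). On all arrays it had the lowest unpaired p among members with a lower reading.

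*dynll1* encodes LC8, a small hub protein of dynein and many other complexes, and its probe sets went opposite ways. *dynll1.L* read 7.99, 7.33, 6.32 and 6.96 on EFTF arrays 1 to 4 and 8.70, 8.23, 7.70 and 7.97 on GFP arrays 1 to 4, lower in each pair (-0.999 ± 0.36, adjusted p = 0.201, blocked adjusted p = 0.0251). The brighter probe set of *dynll1.S* read 8.85, 9.36, 8.93 and 10.38 on EFTF arrays 1 to 4 and 8.27, 6.09, 6.19 and 9.15 on GFP arrays 1 to 4. It was higher in all 4 pairs, by 3.28 and 2.74 in replicates 2 and 3 and by 0.58 in replicate 1, and GFP replicates 2 and 3 were far below the other GFP arrays (1.96 ± 0.72, adjusted p = 0.213, blocked adjusted p = 0.0522). Without the replicate 1 pair it passed with the block, at 2.42 (blocked adjusted p = 0.031). The dimmer probe set of the same symbol read 7.63, 6.85, 6.66 and 7.07 on EFTF arrays 1 to 4 and 8.20, 7.75, 7.56 and 7.39 on GFP arrays 1 to 4. It was lower in every pair, like *dynll1.L* (-0.67 ± 0.25, adjusted p = 0.213, blocked adjusted p = 0.038). Without the replicate 1 pair it no longer passed with the block, at -0.70 (blocked adjusted p = 0.0608). Because its probe sets went opposite ways, no direction is given for *dynll1.S*. A probe set that carries the symbols of both *dynll1* homoeologs was left out. *dynll2.S* differed by 0.48 ± 0.27 (adjusted p = 0.437, blocked adjusted p = 0.299).

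**Figure D4:**
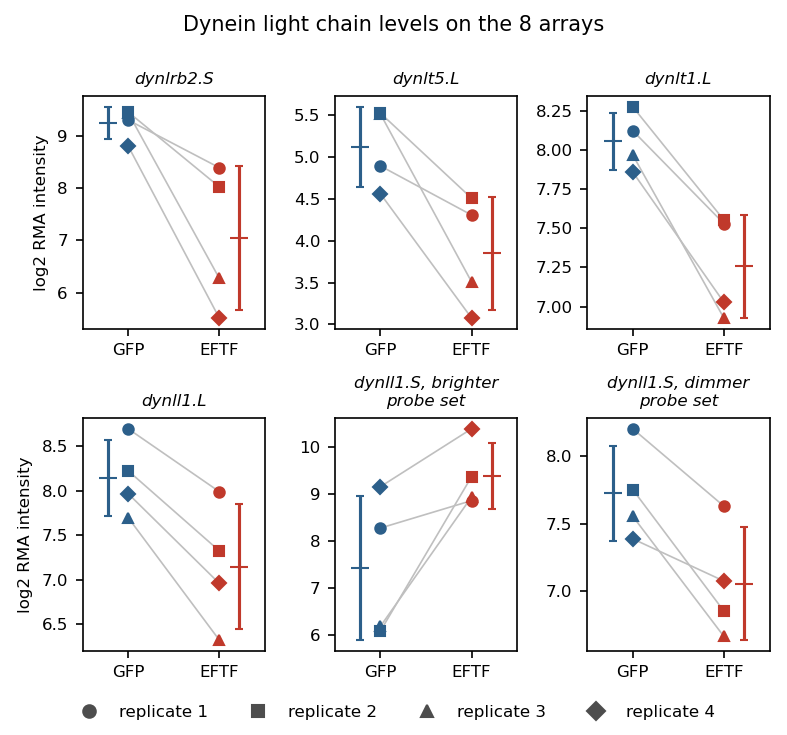
Levels of 6 dynein light chain probe sets (log2 RMA intensity) on the 4 GFP and 4 EFTF arrays, with grey lines joining arrays of the same replicate number and bars showing the mean ± SD of each group. All panels run down in every pair except the brighter probe set of *dynll1.S*, which runs up while the dimmer probe set of that symbol runs down.

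Markers of multiciliated cells were lower alongside these tubulins and light chains. Of 12 symbols on that list 2 were lower in the unpaired test and 9 with the block, with a median of -1.72. Of all probe sets 0.658% were lower in the unpaired test and 5.25% with the block. The summed linear intensity of the 12 was 280 to 934 on EFTF and 1870 to 2403 on GFP arrays, and *myb.S* was above background on no array. Within the EFTF group replicates 1 and 2 had the higher sums (934 and 876) and replicates 3 and 4 the lower (286 and 280). *tuba1cl.3.L*, *tubb4b.L*, *tubb4b.S* and *dynlrb2.S*, picked after their values were seen, were likewise higher in EFTF replicates 1 and 2 than in replicates 3 and 4. The ciliary kinesin *kif3b.S* was not, and read lowest in EFTF replicate 1 (3.18). This split is not particular to these genes. Over all probe sets EFTF replicates 1 and 2 correlated with GFP replicates 1 to 3 at 0.958 to 0.983. For EFTF replicates 3 and 4 these correlations were 0.901 to 0.930. With GFP replicate 4 the split was smaller, as EFTF replicates 1 to 4 correlated with it at 0.959, 0.951, 0.927 and 0.945. The neural progenitor sums split the opposite way, with 3823 and 4597 in EFTF replicates 1 and 2 and 6758 and 5684 in replicates 3 and 4. Of the ionocyte markers 2 of 7 symbols were lower unpaired and 5 with the block, with a median of -2.69 and sums of 130 to 1777 on EFTF and 3278 to 3941 on GFP arrays. The ionocyte sums, too, were higher in EFTF replicates 1 and 2 (1777 and 1272) than in replicates 3 and 4 (130 and 420). The part of these cell types in the member values was not tested. Of the epidermal markers 0 of 10 symbols passed the unpaired test and 1, *grhl1.L*, was lower with the block. Of all probe sets 1.42% passed the unpaired test and 5.25% were lower with the block, so these counts say little. On the epidermal list 8 of 10 were lower on average, where 3409 of all 7531 symbols were, with a median of -0.38. The keratin gene *krt70.S* had a mean of 12.19 ± 0.11 in EFTF caps against 12.35 ± 0.14 in control caps (SD, n = 4 each, limma adjusted p = 0.538). For *tp63.L* 1 array of the EFTF group and 3 of the GFP group exceeded background.

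The light intermediate chains of cytoplasmic dynein 1 and the subunits of its activator dynactin did not pass in either fit. The light intermediate chains, which link dynein to cargo, were read by *dync1li1.L* (-0.23 ± 0.21), *dync1li1.S* (0.16 ± 0.11) and *dync1li2.S* (0.063 ± 0.14), with adjusted p from 0.535 to 0.886. *dync1li1.S* and *dync1li2.S* read near background, above it on 3 EFTF arrays each and on 2 and 3 GFP arrays. No heavy or intermediate chain was analysed here, so the core of the motor was not measured. The 6 dynactin symbols differed by -0.062 to 0.29, with a median of 0.12 and blocked adjusted p from 0.0992 to 0.974. *dctn1.L*, the p150Glued subunit that binds microtubules, was higher in all 4 pairs by 0.24 to 0.34 (0.29 ± 0.19, adjusted p = 0.52, blocked adjusted p = 0.0992). The dynactin transcripts read between 3.01 and 4.62. All 6 symbols were above background on all 8 arrays, with only the lowest values close to it.

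Genes that seed microtubules or fold tubulin did not pass in either fit on all arrays. Of the gamma-tubulin ring complex, which nucleates microtubules, *tubg1.S* differed by -0.12 ± 0.17 (adjusted p = 0.817, blocked adjusted p = 0.721) and *tubgcp6.L* by 0.41 ± 0.35 (adjusted p = 0.643, blocked adjusted p = 0.079). *tubgcp2.L* and *tubgcp3.S* read near background, and *tubg1.L* was above it on no array. Delta tubulin, needed for the triplet microtubules of centrioles and basal bodies, was read by *tubd1.L* at 3.37, 3.30, 3.09 and 3.23 on EFTF arrays 1 to 4 and 3.21, 4.17, 4.07 and 4.10 on GFP arrays 1 to 4. GFP replicate 1 lay within the EFTF range and the other GFP arrays lay above it (-0.64 ± 0.22, adjusted p = 0.178, blocked adjusted p = 0.113). It passed unpaired without GFP replicate 1, at -0.87 (adjusted p = 0.0304), and without both replicate 1 arrays, at -0.91 (adjusted p = 0.0293), and with the block without that pair, at -0.91 (blocked adjusted p = 0.0206). Epsilon tubulin (*tube1.L*) was above background on no array. The folding cofactor *tbce.L*, which helps to assemble the tubulin dimer, read 3.32, 4.13, 4.04 and 4.34 on EFTF arrays 1 to 4 and 3.31, 3.15, 3.03 and 3.46 on GFP arrays 1 to 4. Replicate 1 differed by 0.01 and the other pairs by 0.88 to 1.01, and it did not pass on all arrays (0.72 ± 0.22, adjusted p = 0.144, blocked adjusted p = 0.0695). It passed unpaired without EFTF replicate 1, at 0.93 (adjusted p = 0.0208), and without both replicate 1 arrays, at 0.96 (adjusted p = 0.0498). With the block and without that pair it passed at 0.96 (blocked adjusted p = 0.0191). *tbcb.S* differed by 0.38 ± 0.21 (adjusted p = 0.423, blocked adjusted p = 0.223).

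End-binding proteins, which track growing plus ends, differed by -0.17 to 0.28 over 4 symbols, with blocked adjusted p from 0.34 to 0.601. The stathmin genes *stmn1.L* and *stmn1.S*, whose protein binds free tubulin, had differences of 0.14 ± 0.23 and -0.18 ± 0.37 (adjusted p of 0.837 and 0.883). In *stmn1.S* pair 4 was higher by 1.52 and the other pairs were lower. *map4.L* was near background. The name rule also took the LC3 genes *map1lc3a*, *map1lc3b* and *map1lc3c*, which are named after their copurification with MAP1 and act in autophagy. Their 4 symbols were higher on average by 0.026 to 0.62, where 4122 of all 7531 symbols were higher. None passed on all arrays (blocked adjusted p from 0.0947 to 0.905). The smallest of these differences was of *map1lc3c.L*, which was above background on no array and so shows no direction. *map1lc3a.S* passed with the block without the replicate 1 pair, at 0.67 (blocked adjusted p = 0.031). *map1lc3b.S* was higher in all 4 pairs, by most in replicate 3 (1.62). Neither MAP1A, MAP1B nor MAP7 was analysed here.

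Homoeologs were compared by the difference .L minus .S on each array, fitted over 1017 pairs. None of the 14 member pairs passed the unpaired test (background 0.885% of pairs), and 3 passed with the block (background 5.31%). For *kif2a* the .S copy was lower with the block. The .L copy, dim at 3.76 to 4.69 where RMA understates differences, differed by 0.021. These differences were 0.85 ± 0.31 apart (SE, adjusted p = 0.244, blocked adjusted p = 0.0459). For *dynll1* they differed by -2.96 ± 0.75 (adjusted p = 0.123, blocked adjusted p = 0.0426), a value that takes the brighter *dynll1.S* probe set, while the dimmer was lower like *dynll1.L*. For *tuba1c* (-0.73 ± 0.21, adjusted p = 0.134, blocked adjusted p = 0.0457) the .L probe set was above background on no array. The *tubb4b* copies were both lower, with changes that differed by 0.65 ± 0.27 (adjusted p = 0.292, blocked adjusted p = 0.0675), and the *kif11* copies both higher, with changes that differed by -0.11 ± 0.19 (adjusted p = 0.854, blocked adjusted p = 0.659).

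Microtubule genes outside the name rule were counted from a list of 87. Of these 26 were measured, by 30 symbols, with 0 higher and 3 lower in the unpaired test and 6 higher and 6 lower with the block. Of all probe sets 0.762% were higher and 0.658% lower in the unpaired test, and 4.91% and 5.25% with the block. Intraflagellar transport, the cargo trains that kinesin-2 and dynein move along cilia, held 3 of the 3 unpaired calls and 5 of the 6 blocked ones as lower. Its 6 symbols had a median of -1.40. *ift57.S* (-1.59 ± 0.21, adjusted p = 0.0189, blocked adjusted p = 0.0224), *ift80.L* (-1.58 ± 0.23, adjusted p = 0.0223, blocked adjusted p = 0.0268) and *ift27.L* (-1.24 ± 0.18, adjusted p = 0.0236, blocked adjusted p = 0.0182) had the unpaired calls. Spindle assembly factors held 5 of the 6 blocked calls as higher, 0 of them unpaired. Among their 12 symbols, with a median of 0.65, were *nusap1.S* (1.03 ± 0.31, adjusted p = 0.139, blocked adjusted p = 0.0331), *hmmr.L* (1.06 ± 0.39, adjusted p = 0.217, blocked adjusted p = 0.0302) and *tpx2.L* (0.69 ± 0.33, adjusted p = 0.335, blocked adjusted p = 0.0332), all factors that organise spindle microtubules. The remaining blocked call as higher was *mtus1.L* (0.72 ± 0.32, adjusted p = 0.299, blocked adjusted p = 0.0266). *kifc1.L*, the minus-end kinesin of the spindle, did not pass (0.04 ± 0.22, adjusted p = 0.957, blocked adjusted p = 0.933). The deglutamylase gene *agbl5.L*, whose enzyme trims glutamates from tubulin tails, was the blocked call as lower outside intraflagellar transport (-1.20 ± 0.30, adjusted p = 0.0853, blocked adjusted p = 0.0404).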

How the data were processed

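RNA of 4 EFTF and 4 GFP samples was hybridised to Affymetrix *X. laevis* arrays, and groups and replicate numbers come from the sample titles. The authors preprocessed the scans with RMA (its version is not stated), and the deposited numbers are linear intensity values. The methods add a scaling to control samples, and whether it is in the values is not given. Each intensity was taken to log2 as it stood, without a pseudocount or further normalization. RMA compresses low values, so differences of dim transcripts are understated. The 120 Affymetrix control probe sets were left out, and 17 of them served as background.

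The unpaired fit of EFTF against GFP arrays used limma 3.58.1 (lmFit and eBayes, two-sided, R 4.3.3) without covariates. P-values were adjusted by Benjamini and Hochberg's method across the 15491 probe sets. The unpaired fit was tested on simulated data with independent noise on each array, which says nothing of the blocked fit. The replicate number as a block was the paired alternative. Same-numbered arrays deviated together in all 4 pairs (0.439, 0.595, 0.217 and 0.639, across probe sets), so the numbers were taken to pair the arrays. GFP replicate 3 correlated more with EFTF replicate 2 (0.281) than with EFTF replicate 3. The pairing by number comes from the data and not from a stated shared day or female. The other alternatives left out arrays, blocked replicate 4, changed the pseudocount, filter, scaling, variance prior or choice of probe set, or used an equal-variance test. Precision is limited by how many arrays there are (median SE 0.18 over all probe sets).

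Symbols came from an annotation table of the array, and all 83 member probe sets matched the Xenopus_laevis_v10.1 assembly by gene ID with no changed symbol. The brightest probe set stands for a symbol. Named genes were the neural members and the mitotic and ciliary kinesins, and in each other class up to 3 of the largest differences with groups apart (26 symbols). Others were named after their values were seen. The members and lists were chosen with earlier results of these data known. Marker sums add linear intensities over the brightest probe sets of a list. Sequences and genome coordinates were not used here.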

Additional observations from a re-analysis of the deposited data

Results flagged for a closer look

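In 3 of the 52 groups of 4 arrays of the named genes, 1 array stood apart from the others by the gap to its neighbour relative to the whole range (chance gives about 1 in 20). *kif2a.S* read 10.12 in EFTF replicate 1 and 9.29 to 9.40 on the other EFTF arrays. *stmn4.S* read 2.90 in GFP replicate 4, against 3.05 to 3.08, and *mapt.L* read 3.30 in GFP replicate 2, against 3.09 to 3.11, both near background.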

How the results depend on the processing

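The counts of members called, 0 higher and 0 lower in the unpaired fit, became 9 and 8 with the replicate block and 6 and 5 with replicate 4 as a batch block. The whole-array calls in these alternatives were 761 and 814, and 387 and 367. Member counts were 1 and 2 with both replicate 1 arrays left out, an alternative chosen after the data were seen, against 191 and 128 over the whole array. Quantile normalization called 1 member higher, against 157 probe sets higher and 137 lower over the whole array. Leaving out 1 array gave 0 to 6 higher and 0 to 8 lower, with 6 and 8 without EFTF replicate 1 and 1 lower without GFP replicate 1. Leaving out 1 pair of the blocked fit, also chosen after the data were seen, gave 0 to 14 higher and 0 to 11 lower. The member counts stayed at 0 within replicates 1 to 3 (18 calls over the whole array), with a pseudocount of 16 (92) and with dim probe sets left out (250). They also stayed at 0 with equal array medians (294 over the whole array), with the equal-variance test (2) and with an intensity trend (311). Member homoeolog pairs called went from 0 to 3 with the replicate block. The median differences of the mitotic and ciliary kinesins kept their sign in all alternatives (0.55 to 0.85 and -0.51 to -0.16), and that of the neural members, near 0, did not (-0.055 to 0.077). Over the whole array 118 higher and 102 lower calls became 124 and 170 with equal array medians. No named gene with a call in any fit changed direction. Readings near background cannot show small differences.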

Other observations

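Which group had the larger spread varied between classes, over few symbols each, and whether classes differ in this was not tested. Over the 6 dynein light chain symbols the SD within a group was larger in EFTF caps for 5, with medians of 0.68 and 0.36, and over the 10 mitotic kinesins for 8, with medians of 0.47 and 0.29. The SD was larger in EFTF caps for 0 of 4 end-binding, 0 of 3 ciliary kinesin, 1 of 6 dynactin, 1 of 5 gamma-tubulin ring complex and 2 of 5 beta tubulin symbols. In *dynlrb2.S* it was 1.38 in EFTF and 0.30 in GFP caps. Over all 83 members the SD was larger in EFTF caps for 54.2%, and over all probe sets for 59.8%, so the members as a whole do not stand out in this.

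In the Xenopus_laevis_v10.1 annotation *tuba1c.S* lies next to *tuba1a.S*, and *tuba1cl.3.L* next to *tuba1al.L*. Neither neighbour has a probe set with 1 symbol among the members, and whether their transcripts reach these probes was not tested.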
